A study of Mus musculus with 3 samples.

Results

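Tough Decoys (TuDs) are hairpin RNAs transcribed in the cell that hold binding sites for a chosen microRNA (miRNA) in an accessible form. Here the small RNAs of 2 mouse livers, each making a TuD, were set directly against each other: 2 of the 3 libraries of the study. Both came from C57BL/6 mice, an inbred laboratory strain, that had been given an adeno-associated virus of serotype 9 with a self-complementary genome (scAAV9), and both livers were taken after 4 weeks. One vector carried the TuD against miR-122 (TuD-miR-122) and the other the TuD against let-7 (TuD-let-7). The third library, mock, came from a liver given scAAV9 without a TuD, and its values stand only as a background. None of the sources used here gives the promoter that drives the TuDs, the sex and age of the mice or the number of animals behind a library. With 1 library a side there is no replicate check and no test: intervals are at 95% and cover counting error only, since PCR copies count as reads, and differences between animals, dissections or preparations cannot be told apart from those between decoys.

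The members are the miRNA reads of both libraries. TuD-miR-122 held 3681585 reads and TuD-let-7 2066892, of which 72.0% and 73.1% were assigned to miRNA arms. Levels are reads per 1000000 non-target miRNA reads (RPM), where non-target means that the locus is not one of miR-122 or let-7: 1452499 in TuD-miR-122 against 487678 in TuD-let-7. At these depths 1 read stands for 0.688 RPM in TuD-miR-122 against 2.05 RPM in TuD-let-7. Of 417 distinct arms with a set 5′ end, 213 non-target miRNAs had at least 100 reads over both livers and were compared one by one. Ratios are TuD-miR-122 over TuD-let-7 unless stated otherwise.

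miRNAs guide Argonaute proteins to messenger RNAs, with bases 2 to 8 (the seed) giving most of the pairing. miR-122 is the dominant miRNA of hepatocytes and is known for its part in cholesterol and lipid metabolism; let-7 is a family of near-identical miRNAs, made from many loci and best known for restraining growth and metabolic genes. A target RNA that pairs extensively with a miRNA is known to expose its 3′ end to enzymes that shorten it (trimming) or add untemplated bases (tailing), and the miRNA can then be lost.

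The let-7 family has 9 guide strands that share 1 seed and differ elsewhere. They are shown because their ratios differed, with the seed in capitals (RefSeq, build GRCm38.p6).
let-7a-5p: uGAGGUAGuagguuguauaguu
let-7b-5p: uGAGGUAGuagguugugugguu
let-7c-5p: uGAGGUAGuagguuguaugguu
let-7d-5p: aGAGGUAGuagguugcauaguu
let-7e-5p: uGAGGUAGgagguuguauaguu
let-7f-5p: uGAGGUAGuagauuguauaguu
let-7g-5p: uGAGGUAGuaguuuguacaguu
let-7i-5p: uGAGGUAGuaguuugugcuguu
miR-98-5p: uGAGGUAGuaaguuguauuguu
Counted from the 5′ end, and with T written for U, let-7f differs from let-7a by G12A, let-7c by A19G, let-7e by T9G, and let-7b by A17G and A19G. let-7d differs by T1A and T16C, miR-98 by G11A and A19T, and let-7g by G12T and T18C. let-7i differs most, by G12T, A17G, T18C and A19T. Among their positions are chr15:85707325-85707346 for let-7b, chr17:17830366-17830387 for let-7e, chr10:122985698-122985719 for let-7i and chrX:151913229-151913250 for miR-98.

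Outside let-7, the miRNAs that differed most between the livers came from few loci, and those that the results below turn on are shown for their shared or contrasting seeds. miR-411-3p (chr12:109710225-109710246) and miR-379-3p (chr12:109709102-109709123) share a seed and lie in the imprinted Dlk1-Dio3 region.
miR-379-3p: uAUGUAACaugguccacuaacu
miR-411-3p: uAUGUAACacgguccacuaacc
miR-411-5p: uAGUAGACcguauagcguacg
miR-376b-3p: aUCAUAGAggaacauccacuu
miR-216a (chr11:28757018-28757039), miR-216b (chr11:28746204-28746225) and miR-217 (chr11:28763761-28763783) are neighbours with 3 different seeds.
miR-216a-5p: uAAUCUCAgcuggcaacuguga
miR-216b-5p: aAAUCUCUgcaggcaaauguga
miR-217-5p: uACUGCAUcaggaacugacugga
miR-15b, miR-16, miR-195a and miR-497a share a seed but not a ratio, and miR-19b and miR-103 stood on the low side.
miR-15b-5p: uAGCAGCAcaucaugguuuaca
miR-16-5p: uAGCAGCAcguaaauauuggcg
miR-195a-5p: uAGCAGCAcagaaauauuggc
miR-497a-5p: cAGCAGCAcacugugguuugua
miR-19b-3p: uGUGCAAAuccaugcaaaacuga
miR-103-3p: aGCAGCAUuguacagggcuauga
miR-107-3p: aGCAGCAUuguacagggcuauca

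Each library carried marks of its own before any ratio was taken. Reads that matched no transcript and held 12 bases complementary to the 3′ end of miR-122-5p numbered 25 in TuD-miR-122 and 0 in each of the other 2 libraries; the same count for let-7a-5p was 4 in TuD-let-7, 0 in TuD-miR-122 and 1 in mock. Both decoy libraries held the liver's defining RNAs: fragments of the mRNAs on a liver list were found for 14 of 14 genes in each, led by Alb (albumin), with 1347 and 198 reads. TuD-miR-122 stood apart in its share of pancreatic, Dlk1-Dio3 and mitochondrial RNA, and TuD-let-7 in its read errors, both given with their values below. In TuD-let-7 64.8% of miRNA reads came from miR-122, against 33.0% in TuD-miR-122 and 37.9% in mock, so the choice of scale moves every ratio: scaled to all reads, ratios are 1.67 times those printed here, and the median over all non-target miRNAs moves by 0.74 on the log2 scale.

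The read errors of TuD-let-7 were substitutions at fixed positions. They are called errors for short, since their source could not be worked out from the data. Among 35 abundant miRNAs, guanine was read as thymine at position 11 in a mean of 13.0% of reads in TuD-let-7, 0.0812% in TuD-miR-122 and 0.0395% in mock. At position 19 the means were 10.01%, 0.159% and 0.246%, and adenine was read as cytosine at position 6 in 8.49%, 0.0933% and 1.92%. At positions 5, 9, 18 and 20 the guanine-to-thymine means of TuD-let-7 were at most 0.308%. At position 13 the mean was 2.34% in TuD-let-7 and 0.756% in TuD-miR-122. TuD-miR-122 was the higher library for guanine read as thymine at position 14, at 3.30% against 0.594%, and for adenine read as cytosine at position 19, at 2.89% against 0.176%. miR-21a-5p carried G11T in 13.2% of reads against 0.0885%, let-7a-5p G11T in 14.2% against 0.0617%, and miR-30a-5p G19T in 15% against 0.156%. The highest share of any substitution in miR-122-5p was 0.479% in TuD-let-7 and 1.84% in TuD-miR-122. Such a share depends on whether a miRNA holds guanine or adenine at the affected positions, so it does not show that miR-122-5p was spared. Allowing 1 mismatch added 24.2% to the non-target reads of TuD-let-7, 8.28% to those of TuD-miR-122 and 7.46% to those of mock. To the reads of miR-122-5p it added 6.30% in TuD-let-7 and 4.75% in TuD-miR-122. The ratios with 1 mismatch allowed are therefore given beside those results that they bear on.

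**Figure D1:**
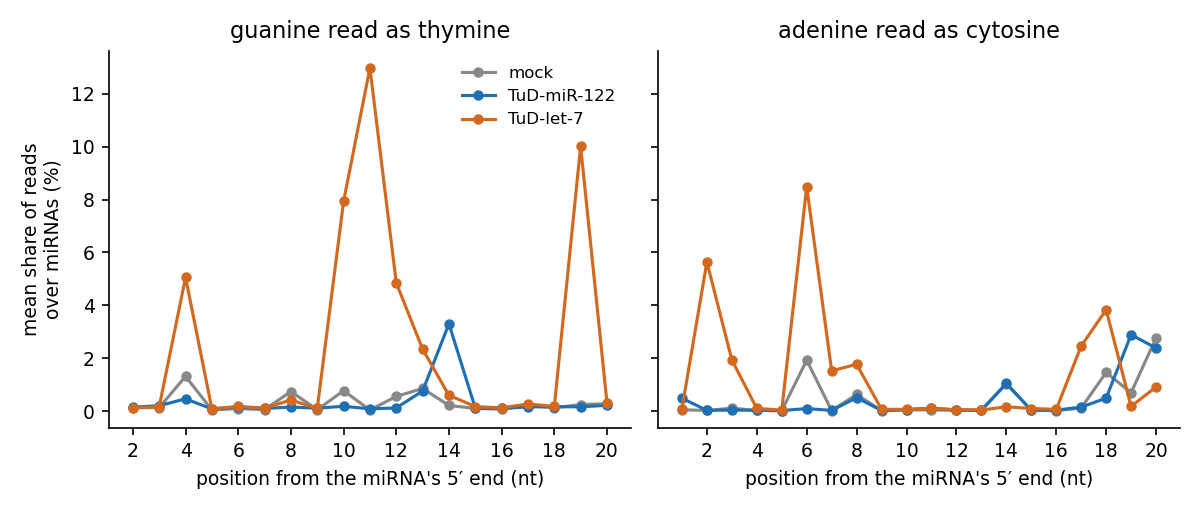
Mean share of reads with a substitution (vertical axis, percent) by position from the miRNA's 5′ end (horizontal axis, nt), over the abundant miRNAs that hold the reference base at that position, with 1 line a library. TuD-let-7 peaks at positions 4, 10 to 12 and 19 for guanine read as thymine, up to 13.0%, and at positions 2 and 6 for adenine read as cytosine.

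The targets of the 2 decoys differed between the livers in opposite directions: miR-122-5p was lower in TuD-miR-122 and the let-7 guides lower in TuD-let-7. miR-122-5p gave 864036 reads in TuD-miR-122 against 976412 in TuD-let-7, which is 594862 RPM in TuD-miR-122, 2002165 in TuD-let-7 and 740434 in mock. The ratio was 0.297 (0.296 to 0.298), 0.336 (0.335 to 0.337) with 1 mismatch allowed and 0.497 when scaled to all reads. The mock level lay between the decoy livers, nearer to TuD-miR-122. miR-122-3p, its partner from the hairpin, was level between them, with 7190.4 and 7113 RPM, 5107 RPM in mock, and a ratio of 1.01 (0.973 to 1.05). The guide gave 82.7 reads per passenger read in TuD-miR-122 against 281 in TuD-let-7, with 145 in mock. This count within 1 library does not depend on the scale.

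The let-7 guides differed the other way, and not equally. Summed, they gave 322210 reads in TuD-miR-122 against 43142 in TuD-let-7, a ratio of 2.51 (2.48 to 2.53). let-7f-5p, the most abundant in TuD-miR-122, stood at 61478 RPM in TuD-miR-122, 14015 in TuD-let-7 and 61139 in mock, a ratio of 4.39 (4.28 to 4.50). let-7a-5p followed with 43854 RPM in TuD-miR-122, 11565 in TuD-let-7 and 42864 in mock, a ratio of 3.79 (3.69 to 3.90). These 2 lay apart from each other and above the rest.

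The middle of the order was held by members whose intervals overlap with a neighbour's. The ratio was 2.72 (2.33 to 3.21) for miR-98-5p, 2.50 (2.44 to 2.57) for let-7c-5p and 2.42 (2.18 to 2.70) for let-7e-5p. It was 2.12 (2.02 to 2.22) for let-7d-5p and 2.10 (2.05 to 2.15) for let-7g-5p. The lowest were let-7b-5p, at 21292 RPM in TuD-miR-122, 14803 in TuD-let-7 and 19472 in mock with a ratio of 1.44 (1.40 to 1.48), and let-7i-5p, at 10479 RPM in TuD-miR-122, 9492 in TuD-let-7 and 11101 in mock with a ratio of 1.10 (1.07 to 1.14). let-7i, which differs from let-7a at the most positions in the sequences above, stood closest to an equal level. The most abundant member in TuD-let-7 was let-7g-5p, with 9163 reads, against 57298 in TuD-miR-122. With 1 mismatch allowed the order of the other members held, from 3.99 (3.91 to 4.08) for let-7f to 1.0 (0.972 to 1.03) for let-7i, but miR-98 moved to 1.09 (0.987 to 1.21). miR-98 is uncertain, since its counts are small beside those of its near copies and its ratio depends on whether a mismatch is allowed. let-7j, whose first 20 bases are those of let-7i with G8T, had 29 reads in TuD-miR-122 against 39 in TuD-let-7, and is likewise uncertain.

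The passenger strands of let-7 did not follow their guides. Summed over the let-7 hairpins they gave 1648 and 605 reads, a ratio of 0.915 (0.833 to 1.01). Among the better counted, let-7d-3p had a ratio of 0.764 (0.665 to 0.879), let-7a-1-3p of 1.02 (0.851 to 1.23) and let-7f-2-3p of 1.32 (0.918 to 1.96). let-7f-5p, counted over all its loci, gave 612 reads per read of let-7f-2-3p in TuD-miR-122 against 185 in TuD-let-7. For let-7d-5p the values were 19.9 and 7.18 per read of let-7d-3p.

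miRNAs that lie beside let-7 in the genome did not follow it either. let-7e-5p lies between miR-99b-5p (ratio 1.10, 0.973 to 1.24) and miR-125a-5p (1.24, 1.15 to 1.35). miR-99a-5p, the neighbour of a let-7c gene, had 7689 RPM in TuD-miR-122 against 12406 in TuD-let-7, a ratio of 0.620 (0.601 to 0.640). miR-125b-5p stood at 0.655 (0.636 to 0.674) and miR-100-5p at 0.944 (0.859 to 1.04). None of these 5 ratios reached 2-fold in either direction, and 74.2% of all 213 non-target miRNAs lay within 2-fold. Scaled to all reads all 5 ratios were above 1.

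**Figure D2:**
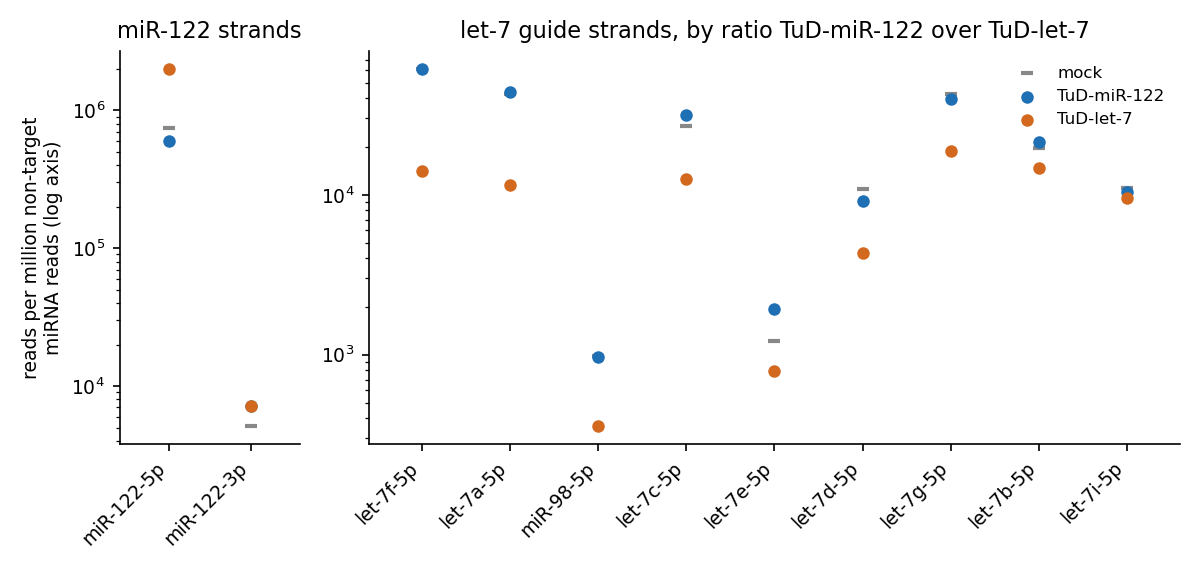
Levels of both miR-122 strands and of the 9 let-7 guide strands (vertical axes, RPM, log axes) in TuD-miR-122, TuD-let-7 and mock, 1 point a library, with the let-7 members ordered by their ratio. miR-122-5p is highest in TuD-let-7, while the gap between the decoy livers narrows from let-7f (ratio 4.39) to let-7i (1.10).

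The 3′ ends of miR-122-5p differed too, with more reads shortened or extended in TuD-miR-122. A read is called tailed when up to 5 bases at its 3′ end do not match the precursor, and trimmed when its matching part is under 21 nt. Of its reads, 51.2% (51.1 to 51.3) were tailed in TuD-miR-122, 24.2% in TuD-let-7 and 23.0% in mock. Trimmed reads made up 20.6% (20.5 to 20.7), 3.04% and 3.08%. In both measures TuD-let-7 lay close to mock and TuD-miR-122 apart from them. The size of the trimming gap depends on the bound: it was 17.6 percentage points between the decoy livers, and 4.48 with the bound at 20 nt.

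The added bases of miR-122-5p were mostly adenines. Tails of adenine alone made up 41.6% in TuD-miR-122 against 17.9% in TuD-let-7, and tails of 2 to 5 adenines 14.2% and 0.883%. Tails of thymine alone, which stand for uridine in RNA, were rarer in TuD-miR-122, at 1.18% against 2.37%. Reads with a 20-nt matching part were 1.63% in TuD-let-7 and 14.7% in TuD-miR-122, and 79.5% of these were tailed there against 56.3%. Untailed reads of 21 nt or more were 74.9% in TuD-let-7 and 44.2% in TuD-miR-122, and their ratio of levels was 0.175. For reads both trimmed and tailed that ratio was 2.25, so these forms of miR-122-5p were more abundant in the liver with the lower total. miR-122-3p was tailed in 15.7% of reads in TuD-miR-122 against 17.7% in TuD-let-7.

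The let-7 guides showed the same kinds of 3′ ends in the other liver. As a family they were tailed in 20.8% of reads in TuD-miR-122, 34.0% (33.6 to 34.5) in TuD-let-7 and 24.4% in mock. They were trimmed in 5.59%, 16.8% (16.5 to 17.2) and 5.20%, and tailed by adenine alone in 11.7%, 21.4% and 15.8%. With the bound at 20 nt the trimming gap was 5.77 percentage points in place of 11.2. Trimming was higher in TuD-let-7 in 9 of 9 members and tailing in 6 of 9. For let-7g and let-7i, and for the family values, part of this can be reads of other members with a substitution, as described below. The family values also move with the mix of its members, which differs between the livers.

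Members differed in which end form set the livers apart, but their shares are not fully comparable. let-7a and let-7c differ only by A19G, so reads whose matching part ends before base 19 fit both and stay out of single members. A let-7c read cut there and given an adenine counts as let-7a. A 22-nt let-7a or let-7c read with G12T matches let-7g for 17 nt and counts there as trimmed and tailed. A let-7b read with G12T counts likewise under let-7i. Guanine was read as thymine at position 12 in a mean of 4.85% of reads in TuD-let-7 and 0.116% in TuD-miR-122. let-7c-5p had the widest gaps: it was tailed in 20.3% of reads in TuD-miR-122 against 45.7% in TuD-let-7, and trimmed in 3.81% and 24.3%. let-7a-5p was tailed in 13.4% and 31.0% and trimmed in 3.11% and 18.9%. let-7f-5p, with the largest ratio of levels, was tailed in 13.4% and 29.8% but trimmed in only 5.29% and 9.50%. let-7b-5p was the reverse of let-7f, with trimming at 7.89% and 25.6% and tailing at 41.8% and 40.5%. let-7g-5p and let-7i-5p were tailed less in TuD-let-7, at 13.8% against 17.9% and 49.1% against 53.2%. For let-7i this direction turned, to 37.7% against 35.9%, when the substitution-type tails described next were set aside, and tailing was then higher in TuD-let-7 in 7 of 9 members. That step does not remove the G12T reads counted under let-7g and let-7i, since their tails start with T in place of C.

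Non-target miRNAs gave the background for these end forms, and the read errors moved with it. Of 49 non-target miRNAs that had 1000 reads or more in each liver, 38 were tailed more and 37 trimmed more in TuD-let-7, with median differences of 4.54 and 3.76 percentage points. A substitution near a read's end is counted as a tail, and it also shortens the matching part. When reads whose tail starts with T in place of G, or C in place of A, were set aside, a step chosen after seeing the data, the median differences became 1.06 and 0.0809 points. By count, 36 of the 49 were then still tailed more in TuD-let-7, miR-15a-5p the most, by 10.3 points, and 25 were trimmed more. With the same step the targets differed by 28.1 and 17.9 points for miR-122-5p, and 12.4 and 10.5 points for the let-7 family in the other direction.

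Before that step 8 of the 49 were trimmed beyond the let-7 family's difference, and after it 0. miR-146a-5p, an immune-cell miRNA, was trimmed in 2.98% of reads in TuD-miR-122 against 19.3% in TuD-let-7, and in 2.71% and 3.60% with such reads set aside. miR-26b-5p went from 4.18% and 18.3% to 5.04% and 6.42%, and for miR-130a-3p, miR-93-5p and miR-140-3p the gap also narrowed to 2.07 points or less in either direction. In tailing, miR-140-3p, miR-31-5p and miR-126a-5p had the next largest excess in TuD-let-7 after miR-146a-5p, together with miR-16-5p, which kept the most of it: 39.9% and 52.0% became 38.6% and 47.1%. On the other side, miR-145a-5p was trimmed in 52.4% in TuD-miR-122 against 45.6% in TuD-let-7, followed by miR-27b-3p, and miR-19b-3p was tailed in 18.0% and 12.8%. miR-19a-3p, miR-103-3p, miR-107-3p and miR-451a were also tailed more in TuD-miR-122, by 2.48 to 5.19 points. With the same reads set aside, the excess was 0.905 points for miR-19b-3p, 1.72 for miR-19a-3p, 2.82 for miR-103-3p and 3.15 for miR-107-3p, and miR-451a turned to 1.89% in TuD-miR-122 against 1.95% in TuD-let-7.

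**Figure D3:**
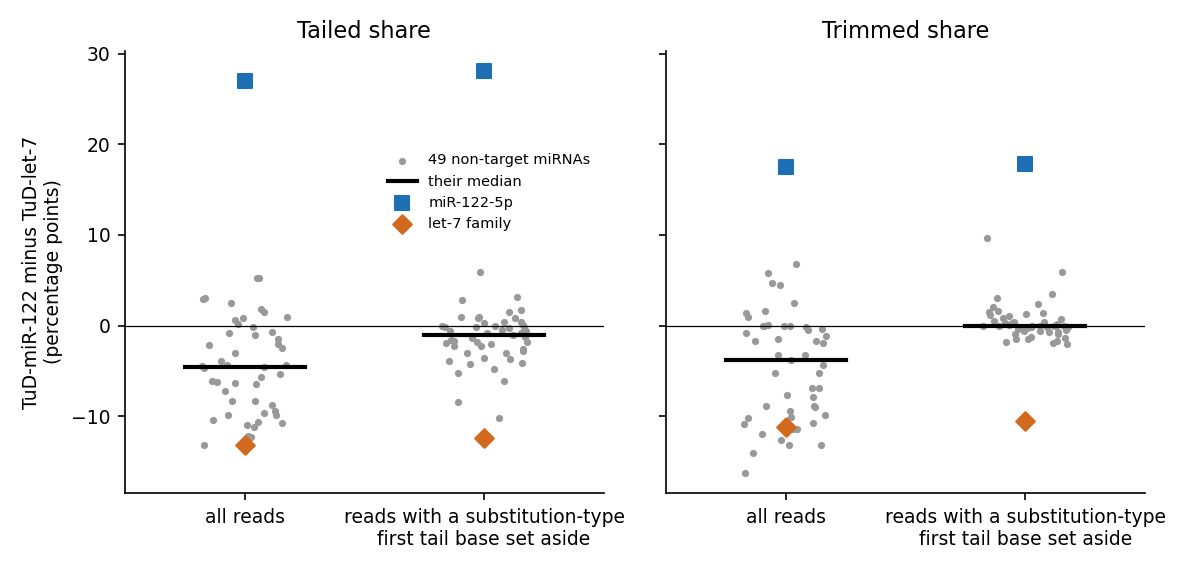
Difference in tailed share (left) and trimmed share (right) between the decoy livers (vertical axes, TuD-miR-122 minus TuD-let-7, percentage points) for 49 non-target miRNAs (points, with their median as a line), miR-122-5p and the let-7 family, over all reads and with reads whose tail starts with a guanine-to-thymine or adenine-to-cytosine change set aside. The trimmed median of the non-target miRNAs moves to near 0 while miR-122-5p and the let-7 family stay at 17.9 and -10.5 points.

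Away from the targets, most miRNAs lay within 2-fold between the 2 livers, and more of the rest were higher in TuD-miR-122 than lower. The median ratio over 213 non-target miRNAs was 1.08, with the 5th and 95th percentiles at 0.505 and 6.49, and 158 of them (74.2%) lay within 2-fold. A miRNA was called when its interval lay wholly above 2 or below 0.5. By that rule 37 were higher in TuD-miR-122 (17.4% of those compared) and 6 were lower (2.82%). A bound of this kind covers counting only, so a call is a statement about these 2 libraries. The minimum of 100 reads is on counts summed over both livers, and TuD-miR-122 held 1452499 non-target reads against 487678. A miRNA high in TuD-miR-122 thus met it at a lower level than one equally high in TuD-let-7. At a minimum of 1000 reads the split was 12 higher and 3 lower, and at 20 reads 45 and 8. The part of this filter in the split was not tested. Scaled to all reads the split became 64 higher and 1 lower, and scaled to all miRNA reads 66 and 1. All 37 were higher on both of those scales too, which was fixed beforehand, since both scales raise every ratio. Median-of-ratios size factors gave 34 and 6. The mock level of the 37 lay below both decoy livers in 21, between them in 12 and above both in 4. Of those 21, 19 were arms of the imprinted Dlk1-Dio3 region, of whose called arms 2 more lay between and 0 above. The ratio of miR-122-5p had 2 non-target miRNAs below it, while let-7f's had 23 above it and that of the let-7 family 37.

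**Figure D4:**
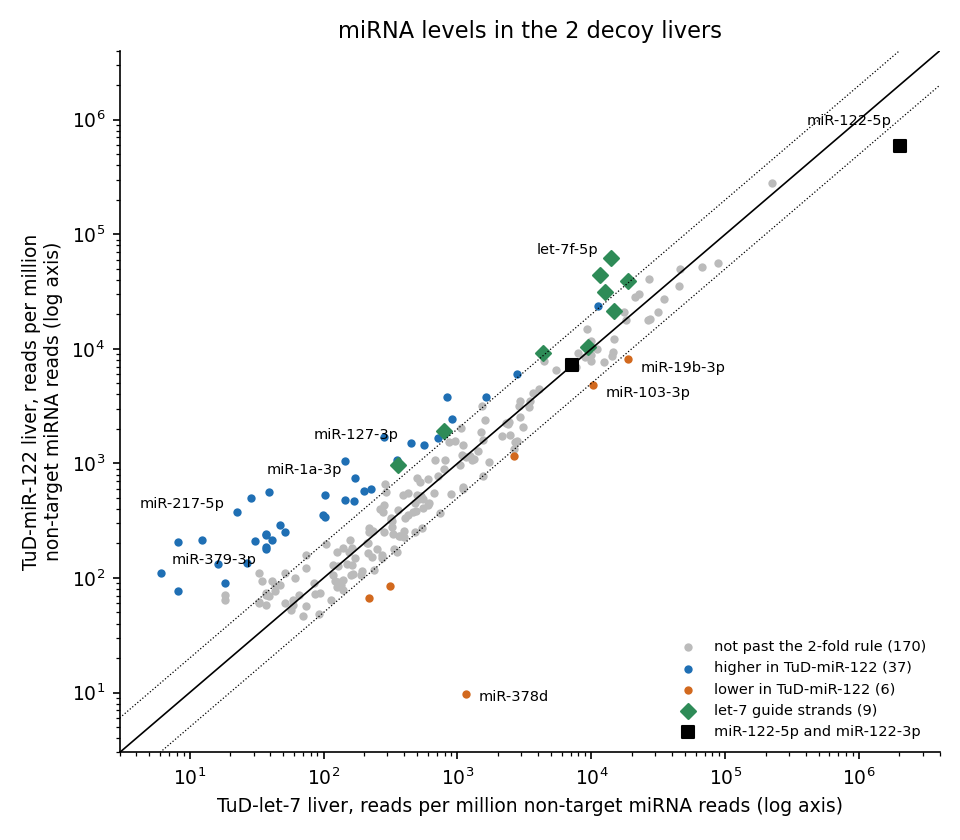
Level of each miRNA in TuD-miR-122 (vertical axis) against TuD-let-7 (horizontal axis), both in RPM on log axes, with equal levels as a solid line and 2-fold either way as dotted lines. The let-7 guides sit above the line and miR-122-5p below it, and most called non-target miRNAs are of low level and lie above it; miR-379-3p, with 0 reads in TuD-let-7, is drawn at the 3-read floor of 6.15 RPM.

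The abundant liver miRNAs were close between the livers. miR-21a-5p, the most abundant non-target miRNA in both, had 408399 and 108447 reads and a ratio of 1.26 (1.26 to 1.27). Next came miR-101b-3p (0.769), miR-192-5p (0.783), miR-194-5p (0.641), miR-29a-3p (1.09) and miR-29b-3p (0.788), which were in the top 10 of both. miR-451a of red cells (1.50) was there too. miR-16-5p, miR-26a-5p and miR-29c-3p were in the top 10 of TuD-miR-122 alone, with ratios of 2.08, 1.32 and 1.34. miR-101a-3p (0.663), miR-22-3p (0.669) and miR-30a-5p (0.677) were in that of TuD-let-7 alone.

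Dlk1-Dio3 miRNAs were 21 of the 37 called higher in TuD-miR-122. The miRNAs of this region (chr12:109563692-109747960 in GRCm38) are expressed from the maternal chromosome and are known from embryonic and neural tissue; it holds 59 miRNA precursors, 50 arms of which had reads. Of 27 arms with at least 100 reads over both livers, 27 had a ratio above 1. The rule was passed by 21, against 17.4% of all 213 non-target miRNAs called higher. The median ratio of the 27 was 4.92 against 1.08 for all non-target miRNAs. Many of these arms met the minimum only through TuD-miR-122, such as miR-154-3p with 132 reads against 9. Their counts and median are therefore no independent support. The sum takes all 50 arms with reads, but an arm was kept only with at least 10 reads over the 3 libraries. Scarce arms entered it through TuD-miR-122 too, such as miR-381-5p with 28 reads against 0, so the sum is not free of selection either. Summed, the 50 arms gave 21186 reads in TuD-miR-122 against 1638 in TuD-let-7, which is 14586 RPM in TuD-miR-122, 3359 in TuD-let-7 and 988 in mock, and a ratio of 4.34 (4.13 to 4.57). Both decoy livers lay above mock.

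The members differed among themselves. miR-379-3p had 162 reads in TuD-miR-122, 0 in TuD-let-7 and 6 in mock, at least 18.1-fold higher at a floor of 3 reads. miR-411-3p had 314 reads in TuD-miR-122, 6 in TuD-let-7 and 19 in mock, a ratio of 17.6 (7.98 to 48.2). miR-411-5p had 816 reads in TuD-miR-122, 19 in TuD-let-7 and 48 in mock, a ratio of 14.4 (9.17 to 24.1). These 3 arms come from 2 neighbouring hairpins of the region, while miR-379-5p, the other arm of the first of them, stood at 6.09 (5.13 to 7.29).

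miR-494-3p (8.02, 3.99 to 18.8), miR-376b-3p (7.19, 5.66 to 9.25) and miR-299a-3p (6.85, 4.09 to 12.4) came next. Below them miR-376c-3p (6.55), miR-434-3p (6.45), miR-381-3p (6.10) and miR-369-3p (5.22) passed as well, and so did miR-434-5p (3.34), miR-541-5p (3.07) and miR-134-5p (2.81). miR-136-5p was the most abundant, with 5502 reads in TuD-miR-122, 407 in TuD-let-7 and 353 in mock and a ratio of 4.54 (4.10 to 5.03). miR-127-3p, which is antisense to the imprinted gene Rtl1, had 2170 reads in TuD-miR-122, 220 in TuD-let-7 and 108 in mock and a ratio of 3.31 (2.88 to 3.82). At the low end lay miR-376a-3p, with 1.92 (1.61 to 2.31), and miR-409-3p, with 1.89 (1.10 to 3.44); neither passed the rule. The arms near chr12:109585789-109595388 had a median ratio of 3.94 (8 arms) and those of chr12:109709060-109743795 one of 5.22 (19 arms).

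miRNAs of the pancreas, which lies against the liver and its bile duct, had the highest median ratio of any list, 17.1. miR-216a-5p had 732 reads in TuD-miR-122, 14 in TuD-let-7 and 37 in mock, a ratio of 17.6 (10.4 to 32.3). miR-216b-5p had 302 reads in TuD-miR-122, 4 in TuD-let-7 and 12 in mock, a ratio of 25.3 (9.80 to 93.6). miR-217-5p had 544 reads in TuD-miR-122, 11 in TuD-let-7 and 45 in mock, a ratio of 16.6 (9.21 to 33.5). miR-375-3p, the islet miRNA, had 764 reads in TuD-miR-122, 50 in TuD-let-7 and 70 in mock, a ratio of 5.13 (3.85 to 6.97). Thus 4 of 4 tested passed the rule, against 17.4% of all 213 non-target miRNAs called higher. The other listed arm, miR-216a-3p, had no reads in either decoy liver. Summed, they stood at 1612 RPM in TuD-miR-122, 162 in TuD-let-7 and 119 in mock, so TuD-let-7 and mock lay close together.

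Fragments of mRNAs of pancreatic enzymes were also more numerous in TuD-miR-122, by less than the miRNAs. The 18 listed pancreas genes gave 162 reads in TuD-miR-122, 20 in TuD-let-7 and 8 in mock, and 5 of the 18 were at 0 in both decoy livers. Pnlip (pancreatic lipase) gave 27, 2 and 3, Ctrb1 (chymotrypsinogen) 25, 4 and 1, and Cel 21, 0 and 0. As a share of mRNA fragments the list was 0.344%, 0.212% and 0.0335%, so TuD-let-7 lay above mock here. The ratio of these shares between the decoy livers was 1.62 (1.02 to 2.73). On the non-target scale it was 2.72 (1.70 to 4.57), against 2.01 (1.82 to 2.22) for the liver mRNA list. The part of such tissue in other differences was not tested, and fewer cells of a type cannot be told apart from less RNA per cell.

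Muscle miRNAs were higher in TuD-miR-122 than in TuD-let-7 but highest in mock. miR-1a-3p had 1090 reads in TuD-miR-122, 83 in TuD-let-7 and 11080 in mock, a ratio of 4.41 (3.53 to 5.58). miR-206-3p of skeletal muscle had 112 reads in TuD-miR-122, 4 in TuD-let-7 and 681 in mock, a ratio of 9.40 (3.57 to 35.1). miR-133a-3p had 136 reads in TuD-miR-122, 17 in TuD-let-7 and 1657 in mock and did not pass the rule (2.69, 1.62 to 4.75). Summed, the 8 listed arms stood at 1004 RPM in TuD-miR-122, 239.9 in TuD-let-7 and 10634 in mock, and miR-208a-3p and miR-208b-3p, of the heart, had no reads in either decoy liver. The 12 listed muscle mRNAs gave 2 reads in TuD-miR-122 against 0 in TuD-let-7.

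Epithelial miRNAs did not all go 1 way. The miR-200 family, which maintains the epithelial state of bile duct and other lining cells, was higher in TuD-miR-122. Of the list, 3 of 10 tested arms passed, against 17.4% of all 213 non-target miRNAs called higher. miR-200c-3p stood at 351 RPM in TuD-miR-122, 98.4 in TuD-let-7 and 148 in mock (3.57, 2.65 to 4.90), miR-429-3p at 475 RPM in TuD-miR-122, 146 in TuD-let-7 and 253 in mock (3.26, 2.55 to 4.23) and miR-200b-3p at 1433 RPM in TuD-miR-122, 566 in TuD-let-7 and 742 in mock (2.53, 2.23 to 2.88). These 3 share a seed and passed the rule. miR-141-3p (2.32, 1.94 to 2.79) and miR-200a-3p (1.90, 1.73 to 2.09), which share another seed, did not. miR-203-3p, of stratified epithelium, and miR-31-5p lay the other way, at 0.507 (0.462 to 0.556) and 0.501 (0.466 to 0.538). Named after their values were seen, miR-183-5p stood at 1.63, miR-96-5p at 1.08 and miR-182-5p at 0.940. miR-205-5p, likewise named, was higher in TuD-miR-122, with 53 reads against 3 in TuD-let-7 and 155 in mock. It had too few reads over the decoy livers to be tested. The summed list stood at 1.11 (1.07 to 1.16).

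Blood, immune, vascular and stromal miRNAs mostly stayed within 2-fold. Over all 213 non-target miRNAs 17.4% were called higher and 2.82% lower, so 0 or 1 call in a list this small does not set it apart. Of 4 erythroid arms 1 passed: miR-144-3p, with 8840 reads in TuD-miR-122, 1362 in TuD-let-7 and 5588 in mock and a ratio of 2.18 (2.06 to 2.31). Its other arm miR-144-5p had 2.15 (1.51 to 3.15), the neighbouring miR-451a 1.50 (1.48 to 1.53) and miR-486-5p 1.62 (1.47 to 1.79). All 4 were thus above the median ratio, and the miRNAs of red cells can follow how much blood a sample holds. Of 8 immune arms 0 passed, with a median ratio of 1.67. miR-142a-3p of blood cells had 1.20 (1.15 to 1.26), miR-223-3p of myeloid cells 1.32 (1.18 to 1.48), miR-150-5p of lymphocytes 1.82 (1.16 to 2.98) and miR-342-3p 1.53 (1.27 to 1.85), while miR-146a-5p was level at 1.0 (0.947 to 1.06). miR-126a-3p and miR-126a-5p, made in endothelium, had 1.19 (1.16 to 1.22) and 1.78 (1.70 to 1.87). Of 7 stromal arms 0 passed, with a median of 0.983: miR-143-3p stood at 0.983 (0.960 to 1.01), miR-145a-5p at 0.667 (0.626 to 0.710), miR-199a-3p at 2.08 (1.92 to 2.25) and miR-199a-5p at 0.976 (0.887 to 1.08). Of 8 listed neural arms 2 had enough reads, miR-128-3p (0.655, 0.498 to 0.867) and miR-219a-5p (1.08, 0.703 to 1.69), and 2 had no reads in either liver.

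**Figure D5:**
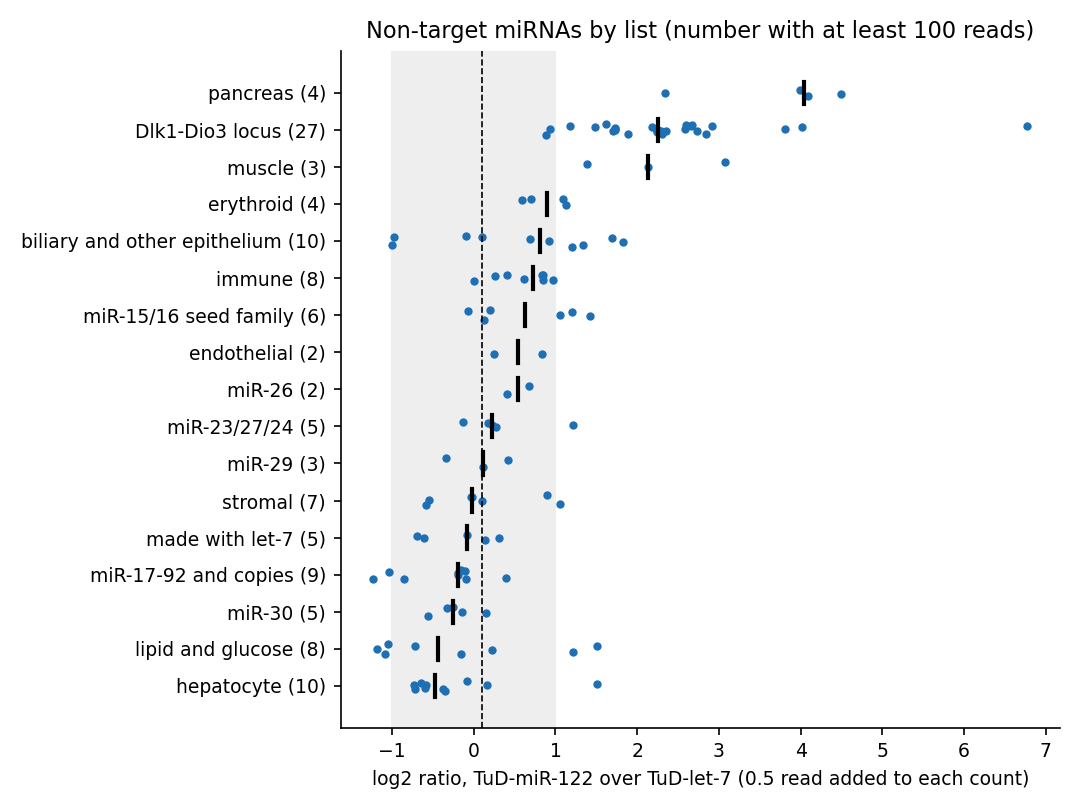
The log2 ratio of TuD-miR-122 over TuD-let-7 (horizontal axis, 0.5 read added to each count) for each listed non-target miRNA with at least 100 reads (points), by list (vertical axis), with the list's median as a bar, ratios within 2-fold shaded and the median of all non-target miRNAs dashed. Pancreas, Dlk1-Dio3 and muscle medians lie beyond the shaded band, and hepatocyte, lipid and glucose, and miR-30 medians lie below 0. Many pancreas, Dlk1-Dio3 and muscle arms met the minimum of 100 reads only through TuD-miR-122.

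Hepatocyte miRNAs were mostly lower in TuD-miR-122 on the non-target scale. None of them passed the rule on that side, where 2.82% of all 213 non-target miRNAs did. Of 10 tested, 2 had a ratio above 1, and the median was 0.719. miR-194-5p, made from loci on chr1 and chr19, had 82261 and 43101 reads, a ratio of 0.641 (0.633 to 0.648). miR-192-5p, which lies beside the chr19 locus, stood at 0.783 (0.770 to 0.795). miR-22-3p stood at 0.669 (0.655 to 0.683), miR-101a-3p at 0.663 (0.651 to 0.676), miR-101b-3p at 0.769 (0.759 to 0.779) and miR-378a-3p at 0.607 (0.589 to 0.625). Scaled to all reads these ratios become 1.07, 1.31, 1.12, 1.11, 1.29 and 1.01, so their direction flips with the scale. The 2 above 1 were miR-365-3p (1.12, 0.999 to 1.26), named after its value was seen, and miR-802-5p, known for its link to insulin sensitivity. The latter passed the rule, with 835 reads in TuD-miR-122, 98 in TuD-let-7 and 1558 in mock and a ratio of 2.86 (2.32 to 3.56). Its own passenger arm miR-802-3p had 47 reads in TuD-miR-122, 24 in TuD-let-7 and 196 in mock, a ratio of 0.658 (0.394 to 1.12), and both arms were higher in mock than in either decoy liver.

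The lower side held 6 miRNAs on the non-target scale. Scaled to all reads or to all miRNA reads, only miR-378d still passed the rule, and miR-103-3p, miR-107-3p and miR-19b-3p stood at 0.787, 0.735 and 0.714 when scaled to all reads. miR-103-3p and miR-107-3p, which share a seed and are known for restraining insulin signalling in liver, had 4876 RPM in TuD-miR-122, 10359 in TuD-let-7 and 5951 in mock, and 1153 RPM in TuD-miR-122, 2625 in TuD-let-7 and 1937 in mock, with ratios of 0.471 (0.454 to 0.488) and 0.439 (0.408 to 0.473). With 1 mismatch allowed, miR-103 stood at 0.488 (0.472 to 0.504) and no longer passed, and miR-107 stood at 0.447 (0.418 to 0.478). miR-19b-3p of the miR-17-92 cluster had 8074 RPM in TuD-miR-122, 18914 in TuD-let-7 and 11188 in mock, a ratio of 0.427 (0.415 to 0.439), and its near copy miR-19a-3p 0.554 (0.518 to 0.593). Of the 9 arms listed for that cluster and its copies, miR-19b alone passed, against 2.82% of all 213 non-target miRNAs called lower. miR-92a-3p (0.925, 0.865 to 0.990), miR-20a-5p (0.939, 0.812 to 1.09) and miR-93-5p (0.875, 0.823 to 0.931) were nearer level, and these 3 ratios move above 1 when scaled to all reads. miR-19b, miR-20a and miR-92a come from 1 transcript, as does miR-17-5p, named after its value was seen, which stood at 0.488 (0.383 to 0.623). miR-19b and miR-92a also have copies on chrX. In each of the 6 lower miRNAs the mock level lay between those of the decoy livers.

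The other 3 were scarce or uncertain. miR-1843b-5p had 124 reads in TuD-miR-122, 154 in TuD-let-7 and 258 in mock (0.270, 0.212 to 0.345) and miR-1981-5p 98 reads in TuD-miR-122, 106 in TuD-let-7 and 129 in mock (0.310, 0.233 to 0.412). miR-378d had 14 reads in TuD-miR-122, 565 in TuD-let-7 and 243 in mock, a ratio of 0.00832 (0.00452 to 0.0141). It differs from the abundant miR-378a-3p over the first 20 bases by A6C, a change that other miRNAs carried in TuD-let-7 (above). Its reads therefore cannot be told apart from miR-378a-3p reads with that substitution. Of 8 miRNAs listed for lipid and glucose metabolism 2 passed on the higher side (miR-27a-3p and miR-802-5p) and 2 on the lower (miR-103-3p and miR-107-3p), with a median of 0.750. Over all 213 non-target miRNAs the shares called were 17.4% and 2.82%. Also named after its value was seen, miR-33-5p, made from Srebf2, had 247 reads in TuD-miR-122, 172 in TuD-let-7 and 172 in mock (0.482, 0.395 to 0.589). In the same list miR-34a-5p stood at 0.894 (0.865 to 0.924) and miR-27b-3p at 1.17 (1.13 to 1.20).

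Within seed families the members differed. In the miR-15/16 family 3 of 6 passed on the higher side: miR-195a-5p, with 2463 RPM in TuD-miR-122, 917 in TuD-let-7 and 1813 in mock (2.69, 2.43 to 2.97), miR-15b-5p (2.31, 2.06 to 2.59) and miR-16-5p (2.08, 2.02 to 2.14). Over all 213 non-target miRNAs 17.4% passed on that side. miR-497a-5p, from the same cluster as miR-195a, stood at 0.957 (0.895 to 1.02), miR-15a-5p at 1.15 (1.11 to 1.19) and miR-322-5p at 1.10 (0.992 to 1.21). With 1 mismatch allowed miR-16 stood at 2.02 (1.97 to 2.07) and did not meet the rule, while miR-15b stood at 2.51 (2.26 to 2.79) and miR-195a at 2.64 (2.41 to 2.88). miR-27a-3p had 3798 RPM in TuD-miR-122, 1634 in TuD-let-7 and 3875 in mock (2.32, 2.16 to 2.51), whereas its seed partner miR-27b-3p stood at 1.17 and its cluster partners miR-23a-3p and miR-24-3p at 1.20 (1.14 to 1.28) and 0.911 (0.882 to 0.940); miR-23b-3p had 1.13.

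Other families were closer to level. The 3 miR-29 guides ran from 0.788 (miR-29b-3p) over 1.09 (miR-29a-3p) to 1.34 (miR-29c-3p), and their sum stood at 1.04 (1.03 to 1.05). The 5 miR-30 guides ran from 0.677 (miR-30a-5p) to 1.11 (miR-30b-5p), and their sum stood at 0.788 (0.778 to 0.799), which moves above 1 when scaled to all reads. miR-26a-5p and miR-26b-5p stood at 1.32 (1.30 to 1.35) and 1.60 (1.55 to 1.65). In none of these 3 families did a member pass the rule. Over all 213 non-target miRNAs 17.4% passed it on the higher side and 2.82% on the lower. With the Dlk1-Dio3, muscle, pancreas and epithelial lists left out, a choice made after seeing the data, 7 higher and 6 lower miRNAs were called among 169, and the median ratio was 0.931. The 7 were miR-15b-5p, miR-16-5p, miR-27a-3p, miR-144-3p, miR-195a-5p, miR-802-5p and, named after its value was seen, miR-374b-5p (2.62, 2.15 to 3.22).

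The balance of major and minor arms was mostly kept. A guide made at several loci, such as miR-194-5p, miR-7a-5p, miR-30c-5p or let-7f-5p, is counted whole and set against the minor arm of 1 locus. Its value is then not the balance of a single hairpin. The 2 miR-199a hairpins enter below with the same counts, and let-7a-1-3p also serves as the minor arm of a let-7c hairpin. Over 62 non-target hairpins with at least 50 reads of each arm over both livers, the count of the major arm per minor arm in TuD-miR-122 was 1.18 times that of TuD-let-7 in the median, and 50 lay within 2-fold. The largest folds with both arms counted more than 10 times in each liver were those of miR-802, with 17.8 miR-802-5p reads per miR-802-3p read in TuD-miR-122, 4.08 in TuD-let-7 and 7.95 in mock, and miR-376b, with 18.8, 4.44 and 11.7 miR-376b-3p reads per miR-376b-5p read. In the other direction miR-194-5p gave 263 reads per miR-194-2-3p read in TuD-miR-122 against 559.8 in TuD-let-7, and miR-7a-5p 20.5 and 45.1 per miR-7a-1-3p read. miR-122, with a fold of 0.294, and let-7f and let-7a, with 3.31 and 3.71, also lay outside 2-fold. At the ends of the range, the counts were small: the fold was 4.84 (0.935 to 25.1) for miR-485 and 0.165 (0.0368 to 0.744) for miR-409.

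Small RNAs other than miRNAs also differed. Fragments of mitochondrial tRNAs made up 0.268% of the TuD-miR-122 library, 0.0292% of TuD-let-7 and 0.0604% of mock, and their ratio on the non-target scale was 5.49 (5.06 to 5.97). It was above 1 for 22 of 22 mitochondrial tRNA genes, with a median of 4.98, and mt-Ts2 alone gave 4677 reads against 175. Mitochondrial mRNA and rRNA fragments had ratios of 3.55 (2.75 to 4.65) and 1.89 (1.81 to 1.98), and nuclear mRNA fragments 1.68 (1.64 to 1.71). Fragments of snoRNAs, which guide the chemical modification of rRNA, had a ratio of 0.874 (0.849 to 0.899), which moves above 1 when scaled to all reads. Reads under 18 nt that were not miRNA stood at 2.29 (2.23 to 2.35). The part of RNA quality in the ratios of miRNAs was not tested.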

How the data were processed

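Small RNAs of 18 to 30 nt were gel-purified from total liver RNA, per the labels' protocols. The authors deposited, for each library, every distinct insert sequence with its read count, with no normalization. The sources used here do not name an adapter trimmer, an aligner or a genome build. 1 of the 3 libraries, mock, served as background only. Animals per library are unknown, so no spread between animals could be measured.

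Inserts were assigned to the 1178 mouse miRNA precursors of GENCODE release M21. Each arm's 5′ end was its most frequent read start with at least 10 reads over the 3 libraries, which gave 478 arms and 417 distinct entries. A read belonged to an arm when it started there, matched at least 16 nt exactly and carried a tail of at most 5 nt. Reads that fitted several members equally stayed out of single miRNAs and in family sums. Counts were divided by each library's miRNA reads outside miR-122 and let-7 loci. Ratios have exact conditional binomial intervals at 95%, shares have Clopper-Pearson intervals, and ratios of arms have normal intervals on the log scale; all cover counting error only. A miRNA was called with at least 100 reads over both livers and an interval wholly beyond 2-fold. Remaining inserts of at least 18 nt were matched to GENCODE transcripts. Mature sequences came from the RefSeq table (GRCm38.p6), which held 210 of 247 names. The intervals and the call rule were tried on simulated counts with counting error alone. This is the model that the intervals assume, so it does not show how they behave with PCR copies, read errors or differences between animals. Python 3.11, numpy 2.4, pandas 2.3 and scipy 1.17 were used.

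Named miRNAs are all strands of the targeted loci, the 10 most abundant non-target miRNAs in either library, the 10 highest and 10 lowest called ratios, the 5 largest differences each way in tailing, trimming and arm ratio, and list members that were called or among the 6 most abundant. The members and lists were chosen with earlier results of these data known. Alternatives changed the scale, the read start, the matching length, mismatches, the 5′ ends, the read minimum and the definitions of tailed and trimmed.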

Additional observations from a re-analysis of the deposited data

Results flagged for a closer look

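These are signals in reads that the comparison of miRNA levels does not use, each above its value in mock. Unmatched reads with 12 bases complementary to the 3′ end of miR-122-5p numbered 25 in TuD-miR-122 against 0 in mock, and those complementary to let-7a-5p numbered 4 in TuD-let-7 and 1 in mock. miR-21a-5p carried G11T in 13.2% of its reads in TuD-let-7. Fragments of mitochondrial tRNAs made up 0.268% of the TuD-miR-122 library. Fragments of the mRNAs on the pancreas list numbered 162 in TuD-miR-122 and 8 in mock. With 1 library a side none of these was compared with a spread between animals.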

How the results depend on the processing

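No paired analysis was possible because each group has 1 library, and no replicate could be left out. No called ratio moved to the other side of 1 under the alternatives. For the changes of scale this was fixed beforehand. Each multiplies every ratio by 1 factor (1.67, 1.70 or 0.932), too small to carry a called ratio across 1. Of 109 named ratios 29 moved across 1 when scaled to all reads and 29 when scaled to all miRNA reads, none of them called. Ratios here are TuD-miR-122 over TuD-let-7 for miR-122-5p (0.297 as reported) and TuD-let-7 over TuD-miR-122 for the let-7 family (0.399). Scaled to all reads they were 0.497 and 0.238, with 64 miRNAs higher and 1 lower; scaled to all miRNA reads they were 0.505 and 0.235, with 66 higher and 1 lower. Median-of-ratios size factors gave 0.277 and 0.428, and 1 mismatch allowed 0.336 and 0.438. A matching part of at least 18 nt gave 0.294 and 0.390. For miR-122-5p, starts within 2 nt gave 0.301, and both the RefSeq 5′ ends and leaving out inserts read once gave 0.296. A minimum of 1000 reads left 12 higher and 3 lower, and leaving out the 4 lists named in the text, a choice made after seeing the data, left 7 higher; fewer miRNAs are compared in both.

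Differences in end forms, in percentage points towards the targeted liver, were 27 (tailed) and 17.6 (trimmed) for miR-122-5p and 13.2 and 11.2 for the let-7 family as reported. Tails of at most 2 nt gave 24.7 and 11 for tailing, and tails of A alone 23.7 and 9.78. Trimming below 20 nt gave 4.48 and 5.77. A matching part of at least 18 nt gave 17.2 for trimmed miR-122-5p, and 11.5 and 9.02 for tailed and trimmed let-7. Starts within 2 nt gave 17.7 for trimmed miR-122-5p, and leaving out inserts read once 10.7 for trimmed let-7. Leaving out tails that start T for G or C for A, chosen after seeing the data, gave 28.1, 17.9, 12.4 and 10.5. Of 871 recomputed ratios of single miRNAs, 606 moved by less than their counting interval and 265 by more; the 2 scales that hold target reads account for most of the 265. At the depth of TuD-let-7, 3 reads are 6.15 RPM, so lower levels were not detectable there.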
